A study of Sus scrofa with 30 samples.

Results

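The 8 genes described here encode fibrillar collagens (COL1A1, COL1A2, COL3A1), proteins that bind collagen or organise its fibrils (SPARC, DCN, LUM), an inhibitor of matrix-degrading enzymes (TIMP1) and the intermediate filament of mesenchymal cells (VIM). They were picked by a list of 8 human protein identifiers, all 8 of which are among the 19864 rows of the authors' expression table. The rows are ENSP00000225964 (COL1A1), ENSP00000297268 (COL1A2), ENSP00000304408 (COL3A1), ENSP00000231061 (SPARC), ENSP00000052754 (DCN), ENSP00000266718 (LUM), ENSP00000218388 (TIMP1) and ENSP00000224237 (VIM). The liver samples came from female adolescent pigs, 30 in all, in 10 groups of 3. Piglets taken from a litter had normal birth weight (N, 1.4 to 1.6 kg) or low birth weight (U, 0.8 to 1.1 kg), and after weaning all were housed individually. N_T1 and U_T1 were sampled before any restriction. NR and UR pigs then received 50% of the feed eaten ad libitum for 3 weeks, while NK and UK pigs were fed ad libitum, and each of these 4 groups was sampled after the restriction (T2) and again, in other pigs, after 5 weeks of ad libitum feeding (T3). The labels give days 76, 97 and 103 for the sampling and the series text gives 75, 98 and 131, so the names T1, T2 and T3 are used. Nothing in the labels names other alleles, drugs or pooling of animals.

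Type I collagen is built from COL1A1 and COL1A2 chains wound around each other, and type III collagen from COL3A1 chains alone. Every turn of these helices needs a glycine, so the chains repeat glycine followed by a pair of other residues. In the liver these genes are expressed mainly by stellate cells and portal fibroblasts rather than by hepatocytes, and their expression rises in fibrosis. In bulk tissue, fewer cells of such a type and less RNA per cell cannot be told apart.

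Of the table's 19864 rows, 19024 equalled the median of 3 neighbouring probes of 60 bases, among them those of all 8 genes, so a gene's value rests on 3 probes that can disagree. The glycine repeat is visible in the letters of 5 of the 9 collagen probes, which are shown because the repeat ties a probe to a collagen by its letters alone. The COL1A1 probes PigEx0039735 and PigEx0039736, on which the results for time below mainly rest, do not carry it. Capitals mark every glycine codon (GGN) of the repeat, or its complement (NCC), where at least 5 follow each other at steps of 9 bases.
COL1A1, PigEx0039734: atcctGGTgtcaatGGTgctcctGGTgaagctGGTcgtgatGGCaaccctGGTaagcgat
COL3A1, PigEx0042390: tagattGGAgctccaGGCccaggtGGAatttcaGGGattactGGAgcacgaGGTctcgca
COL1A2, PigEx0037067: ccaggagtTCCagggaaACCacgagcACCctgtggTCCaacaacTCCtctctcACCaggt
COL1A2, PigEx0037068: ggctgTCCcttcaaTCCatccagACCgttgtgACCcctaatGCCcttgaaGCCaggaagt
COL1A2, PigEx0037069: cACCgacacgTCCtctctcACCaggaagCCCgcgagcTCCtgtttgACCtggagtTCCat
The COL1A1 and COL3A1 probes carry 6 repeats each on the printed strand. All 3 COL1A2 probes carry the repeat on the complementary strand, with 6, 6 and 7 copies. Among all 60900 probes, the repeat stood on the printed strand of 46 (0.0755%) and on the complementary strand of 34 (0.0558%). Of these, 37.0% and 79.4% were well above background on all 30 arrays, against 49.1% of all probes. These probes are not known to be collagens, so the shares do not show whether a collagen probe of either strand detects its RNA. The COL1A2 row ran from 13.7 to 50.8 intensity units, against 294.9 to 2380.1 for COL1A1. Whether the COL1A2 row measures COL1A2 RNA was not tested. The match is by letters, and no protein or genome sequence was used to check it.

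The share of an array's probes standing well above background ran from 53.6% to 74.3% (median 66.0%), and none of the 24 probes of the 8 genes was saturated on any array. The lowest shares were those of UR_T3 replicate 2 (53.6%) and NK_T3 replicate 1 (55.0%). After removing row means within each set, the table column of UR_T3 replicate 2 followed its array with r = 0.64, where the next lowest column was at 0.87. Arrays lay on 6 slides read in 4 scans, and time point, slide and scan overlap only in part. Slide 6, the only slide of scan 4, held replicate 3 of all 4 groups at T3, and NK_T3 replicate 1 was the only array of scan 3. The 3 N_T1 columns of the table hold the values of other N_T1 arrays than their labels name, which leaves the group itself unchanged. Nothing in the labels says more than that the replicates are separate samples, so the p-values measure the spread between these samples.

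**Figure D1:**
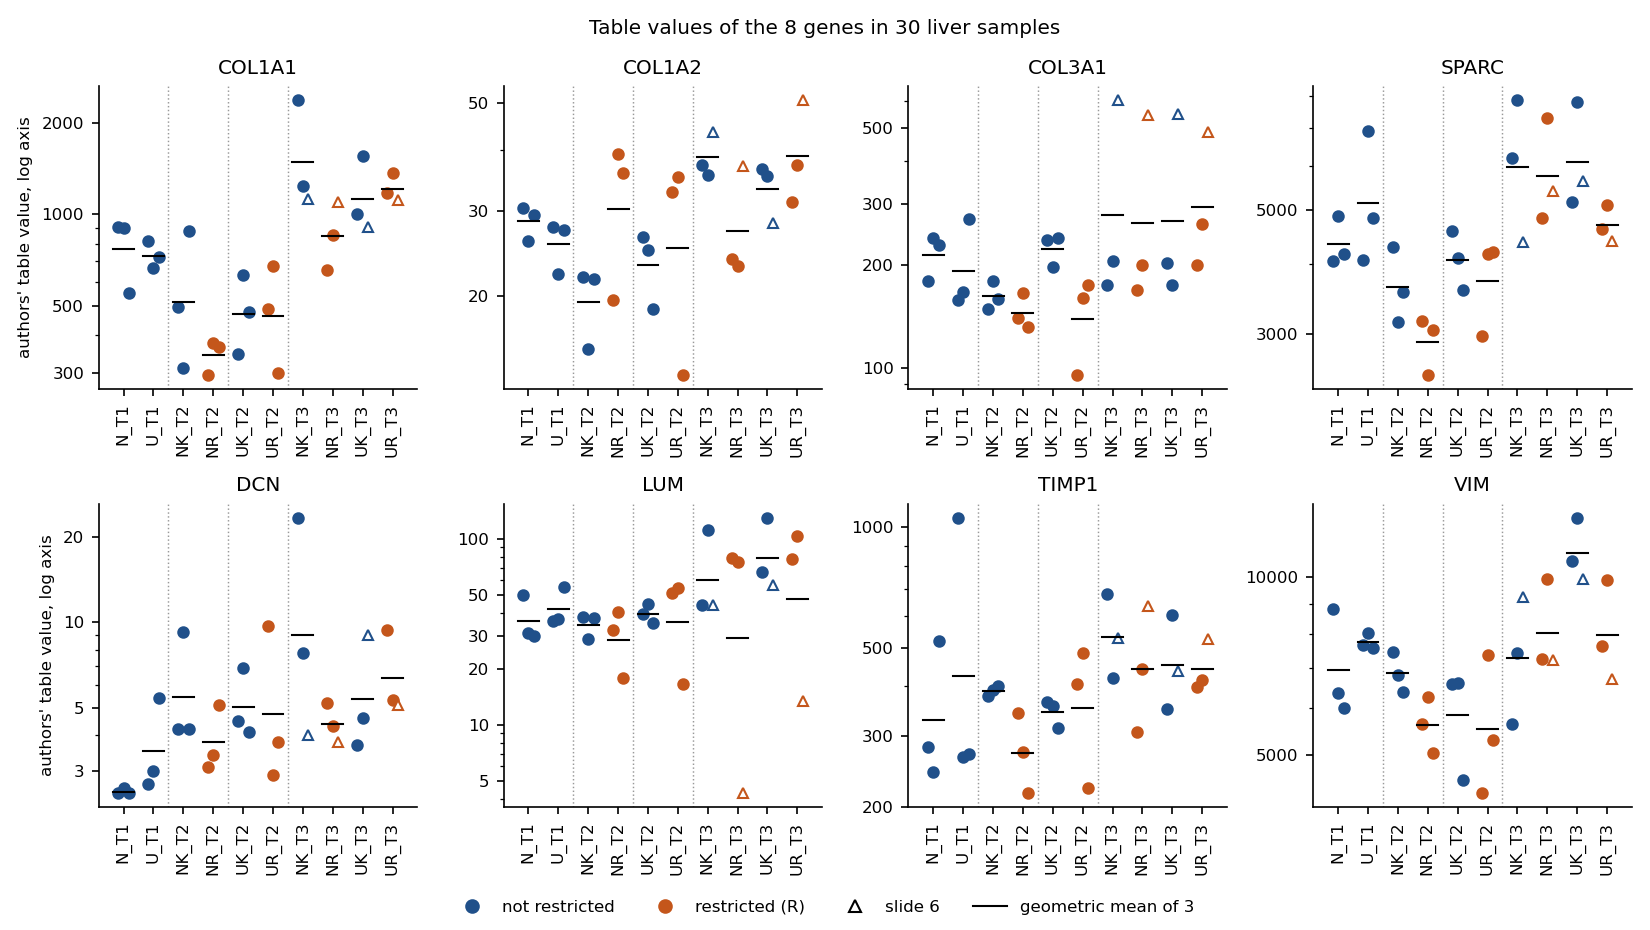
Value in the authors' table (intensity units, log axis) for each of the 8 genes in each of the 10 groups; each point is 1 pig, bars are geometric means of 3, open triangles are arrays of slide 6, and dotted lines separate arrays that were normalized apart (T1, N at T2, U at T2, T3). COL3A1 is at 486.3 to 605.1 on the slide 6 arrays and at 168.6 to 262.2 on the others of T3.

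Before restriction, the birth weights were compared to ask whether low weight alone marked these genes. COL1A1 was at 909.9, 900.0 and 548.9 intensity units in the N_T1 pigs and at 816.1, 663.5 and 721.1 in the U_T1 pigs, so the ranges overlapped. COL3A1 (179.9, 238.7 and 228.7 in N_T1, against 157.6, 166.1 and 271.9 in U_T1) overlapped likewise. TIMP1, which blocks matrix metalloproteinases, was at 282.7, 244.7 and 517.8 in N_T1 and at 1056.6, 266.9 and 270.1 in U_T1. A single low birth weight pig was thus high for TIMP1, and without that pig the difference U minus N turned from 0.36 to -0.30 on the log2 scale. All 3 TIMP1 probes moved together across the 30 arrays (r from 0.95 to 0.98, as a description of probes that share arrays). The remaining genes also overlapped between the birth weights, except DCN. SPARC was at 4051.2, 4877.1 and 4178.7 in N_T1 and at 4076.1, 6924.9 and 4842.5 in U_T1 (0.24, interval -0.32 to 0.81), with 1 low birth weight pig above the rest. VIM was at 8814.3, 6364.6 and 6001.8 in N_T1 and at 7666.3, 8039.9 and 7570.3 in U_T1 (0.16, interval -0.28 to 0.60), the U_T1 pigs lying inside the wider range of the N_T1 pigs. For DCN the U_T1 values lay above the N_T1 values, the only one of the 8 genes without overlap, where 5.78% of all rows had none. Its row is set by probes at background, but its brighter probe PigEx0034222 was also higher in all 3 U_T1 pigs, by 0.37 (limma adjusted p = 1).

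By limma, 0 of the 8 genes and 0 of 19864 rows were called at an adjusted p under 0.05 at T1 (568 rows, 2.86%, had an unadjusted p under 0.05). The difference was above 0 for 5 of the 8 genes and for 48.5% of all rows. The median difference of the 8 genes was 0.19, against -0.01 for all rows.

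After 3 weeks of restriction, normal birth weight pigs showed lower values than their controls for 7 of the 8 genes, with a median difference of -0.31 against -0.04 for all rows, of which 44.5% were above 0. One of the 7, DCN, rests on probes never well above background, and without it 6 of 7 genes were lower (median -0.29). The probes of a gene did not all share its sign. Of the 16 probes well above background on all 30 arrays, 4 were higher in NR. They were COL3A1 probe PigEx0042389 (0.45), LUM probe PigEx0024957 (0.70), DCN probe PigEx0034222 (0.30) and VIM probe PigEx0032355. None of the 8 passed the test, and limma called 0 of 19864 rows (1445, or 7.27%, had an unadjusted p under 0.05, and none of the 8 genes did). COL1A1 was at 494.7, 311.7 and 882.2 in NK and at 294.9, 376.2 and 366.3 in NR, a difference of -0.58 (95% interval -1.46 to 0.30, adjusted p = 0.762). The restricted pigs lay close together, and 1 of the 3 controls was as low as they were. COL1A2 was at 21.9, 15.5 and 21.7 in NK and at 19.6, 39.3 and 35.9 in NR (0.64, interval -0.20 to 1.47). Its probe PigEx0037067 was well above background on 0 of these 6 arrays and PigEx0037069 on only 1 of the 3 NK arrays, so this difference is in part against background. PigEx0037068, well above background on all 6, was higher in NR by 0.42 without overlap (adjusted p = 0.663).

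The matrix-associated genes SPARC and TIMP1 and the filament gene VIM were also at lower values in NR than in NK at T2. SPARC, a collagen-binding glycoprotein, was at 4289.7, 3157.6 and 3561.2 in NK and at 3172.5, 2533.2 and 3048.8 in NR (-0.33, interval -0.74 to 0.09), with 1 pair of values crossing. TIMP1 was at 377.9, 392.3 and 400.6 in NK and at 342.9, 274.0 and 216.1 in NR (-0.52, interval -1.11 to 0.07, adjusted p = 0.701), with no overlap. Its 3 probes differed by -0.49, -0.50 and -0.38, each without overlap. VIM was at 7456.2, 6824.8 and 6378.9 in NK and at 5632.4, 6256.7 and 5040.1 in NR (-0.29, interval -0.77 to 0.19), again with no overlap. Groups without overlap were found for these 2 of the 8 genes, where 11.3% of all rows had none. For VIM only probe PigEx0032356 set the groups apart. PigEx0032357 overlapped, and PigEx0032355 overlapped with a higher mean in NR. LUM, a small proteoglycan that regulates fibril thickness, was at 38.0, 28.8 and 37.6 in NK and at 32.5, 40.6 and 17.8 in NR, so the groups overlapped.

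In low birth weight pigs at T2, COL3A1 was the gene with the clearest difference. It was at 236.1, 196.7 and 238.9 in UK and at 95.3, 160.1 and 174.6 in UR. Every restricted pig lay below every control, by -0.69 on the log2 scale (interval -1.18 to -0.20, 0.622-fold). The unadjusted p was 0.0107 and the limma adjusted p was 1, so the difference did not pass. Of all rows, 9.1% had groups without overlap and 4.17% had an unadjusted p under 0.05, and limma called 0 of 19864. Without UR_T2 replicate 1 the difference was -0.42. The table value of COL3A1 was that of probe PigEx0042390 on all 30 arrays. Its neighbour PigEx0042389 was higher in UR than in UK by 0.48 with no overlap (unadjusted p = 0.0449, adjusted p = 0.952), and PigEx0042391 differed by 0.14. The 3 COL3A1 probes therefore did not share a direction, and across 30 arrays PigEx0042389 and PigEx0042390 correlated with r = 0.07.

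The other 7 genes differed between UR and UK at T2 by -0.14 to 0.11 on the log2 scale, all with overlapping groups, and 2 of the 8 genes were above 0 (50.3% of all rows). For COL1A1 the values were 346.9, 628.9 and 477.2 in UK and 487.6, 677.0 and 300.0 in UR (-0.02, interval -0.90 to 0.86). Averaged over both birth weights, COL3A1 was at -0.42 (interval -0.77 to -0.08, unadjusted p = 0.0211, adjusted p = 0.539), where 8.43% of rows had an unadjusted p under 0.05. In the same average, PigEx0042389 was at 0.47 (unadjusted p = 0.0103, adjusted p = 0.357) and PigEx0042391 at 0.13. The test of whether restriction acted differently in the 2 birth weights called 0 rows by limma, with 675 at an unadjusted p under 0.05 (3.4%), and none of the 8 genes had an unadjusted p under 0.05. For COL3A1 the effect in U minus that in N was -0.52 (interval -1.22 to 0.17), so the 2 birth weights were not shown to differ.

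**Figure D2:**
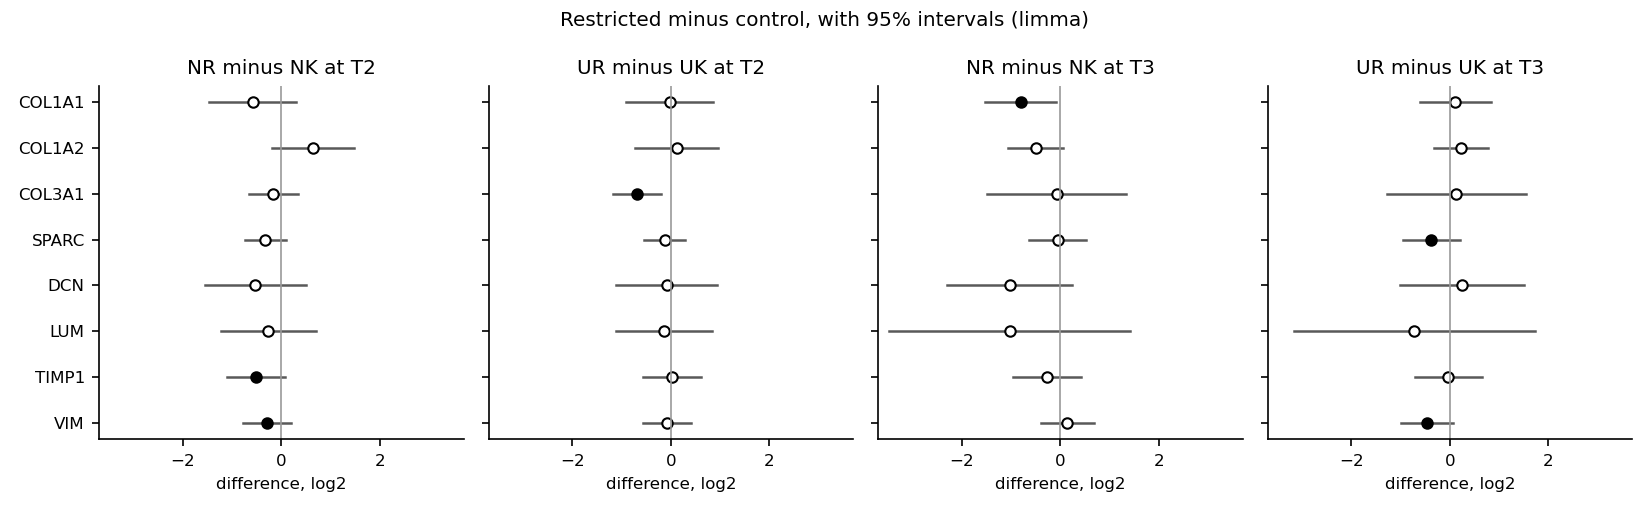
Difference restricted minus control on the log2 scale for the 8 genes in each birth weight at T2 and T3, with 95% intervals from limma (3 pigs a group); filled points are genes whose groups do not overlap. Only the intervals of COL3A1 in UR minus UK at T2 and COL1A1 in NR minus NK at T3 leave out 0.

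After 5 weeks of refeeding, COL1A1 was lower in formerly restricted pigs of normal birth weight than in their controls. It was at 2380.1, 1237.9 and 1121.3 in NK and at 657.4, 854.9 and 1094.8 in NR. No NR pig reached the lowest control, and the difference was -0.81 (interval -1.53 to -0.09, 0.571-fold). The unadjusted p was 0.0314 and the adjusted p 0.888, so it was not called. Groups did not overlap in 8.18% of all rows, and 4.61% had an unadjusted p under 0.05. All 3 COL1A1 probes pointed the same way, with differences of -0.64, -0.86 and -0.88. The highest control, NK_T3 replicate 1, is the only array of its scan, and without it the difference was -0.47. With slide as a block it was -0.29, with array weights -0.76, and without the 4 arrays of slide 6 -1.20. It was not called in any of these.

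COL1A2, the partner chain, was at 37.3, 35.6 and 43.5 in NK and at 23.8, 23.0 and 37.0 in NR at T3 (-0.50, interval -1.06 to 0.05), with 1 NR pig inside the range of the controls. Over the 8 genes, 7 were at lower values in NR, with a median of -0.39 against -0.07 for all rows, of which 41.6% were above 0. Without DCN, whose row is set by dim probes, 6 of 7 genes were lower (median -0.27), and without DCN and LUM 5 of 6 (median -0.18). Among the 16 probes well above background on all arrays, 11 were lower in NR and 5 higher, with COL3A1 probe PigEx0042389 higher without overlap (adjusted p = 0.837). In low birth weight pigs the 8 genes split 4 against 4 (median 0.04 against 0.02, and 52.9% of all rows above 0). COL1A1 there was at 1002.6, 1554.4 and 909.7 in UK and at 1173.7, 1363.0 and 1116.2 in UR (0.11, interval -0.61 to 0.83), the restricted pigs within the range of the controls. The restriction effect on COL1A1 in U minus that in N was 0.92 (interval -0.10 to 1.94, limma adjusted p = 0.999), so a difference between the birth weights was not called.

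SPARC (5155.4, 7788.3 and 5635.1 in UK, 4616.2, 5095.6 and 4397.0 in UR) and VIM (10627.9, 12567.9 and 9889.6 in UK, 7649.5, 9849.9 and 6729.7 in UR) were at lower values in UR than in UK at T3 without overlap, by -0.38 and -0.46. The 3 SPARC probes differed by -0.34, -0.49 and -0.33, and the VIM value rests on PigEx0032356 (-0.42), while PigEx0032355 and PigEx0032357 differed by 0.13 and -0.09. The intervals of the 2 rows (-0.95 to 0.20 and -0.99 to 0.07) include 0, and 5.62% of all rows did not overlap, while 1.91% had an unadjusted p under 0.05. TIMP1 was at 351.8, 602.4 and 437.4 in UK and at 399.3, 414.5 and 525.7 in UR (-0.03, interval -0.71 to 0.65), the UR pigs inside the range of the UK pigs.

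Between the birth weights at T3, VIM was higher in UK than in NK pigs. The UK pigs are those set against UR above, so both VIM differences rest on them. The UK values were 10627.9, 12567.9 and 9889.6 and the NK values 5646.2, 7440.9 and 9252.3, a difference of 0.59 (interval 0.06 to 1.12, unadjusted p = 0.0337, adjusted p = 1). The groups did not overlap, as in 7.46% of all rows, and 3.44% had an unadjusted p under 0.05. It rests on probe PigEx0032356 (0.68), while PigEx0032355 and PigEx0032357 differed by -0.20 and -0.03. Among restricted pigs, COL1A1 was higher in UR than in NR (0.51, interval -0.21 to 1.23) without overlap, as in 6.97% of rows. With slide as a block the difference was 0.10, and without the 4 arrays of slide 6 it was 0.75. The NR pigs are those set against NK above, so both COL1A1 differences rest on them. None of the 8 genes was called in any of the 11 comparisons within T1, T2 or T3, in which limma called 0 of 19864 rows each and between 379 and 1674 rows had an unadjusted p under 0.05. The interval of each difference shows how large a change these numbers of pigs leave possible.

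At T3, all 4 arrays of slide 6 stood apart for the COL3A1 row, and 2 of the 4 for the LUM row. Single probes of LUM (below) and COL1A2 also set all 4 apart. On scaled values, COL1A2 probe PigEx0037068 was higher on all 4 than on the others, by 1.03 on the log2 scale. COL3A1 was at 605.1, 547.0, 549.3 and 486.3 on the 4 arrays of slide 6, from NK, NR, UK and UR, and at 168.6 to 262.2 on the other 8, a gap with no overlap. Of all rows, 8.84% had all 4 arrays of slide 6 above the others and 9.91% had all below. On the scaled probe values, PigEx0042390 and PigEx0042391 showed the gap and PigEx0042389 did not. Each group holds 1 such array, so the gap enters the spread within groups: the interval of COL3A1 for NR minus NK at T3 runs from -1.50 to 1.34. Without slide 6 that difference was -0.04 and for UR minus UK 0.29.

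LUM, which encodes a keratan sulfate proteoglycan of collagen fibrils, was at 4.3 in NR_T3 replicate 3 and at 13.4 in UR_T3 replicate 3, both on slide 6. The controls on that slide were at 44.4 and 56.7, and the other 8 arrays of T3 at 44.2 to 130.0. On these 2 restricted arrays, and on no others at T3, probes PigEx0024956 and PigEx0024958 were not well above background, so the 2 values are bounds. Against the lowest signal among probes well above background on the array, PigEx0024956 was at least 3.81-fold higher in NK than in NR within slide 6 and at least 3.65-fold higher in UK than in UR. For PigEx0024958 these bounds were 1.85-fold and 1.73-fold, each from 1 pig against 1. On slide 4, the only other slide with a pair, the row differed by -0.32 for UR minus UK. Without slide 6 the differences of the row were 0.14 (NR minus NK) and -0.05 (UR minus UK), and with it, values at background included, -1.03 and -0.72.

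Probes PigEx0024956 and PigEx0024958 carried this pattern (r = 0.89 over 30 arrays) and PigEx0024957 did not (r = -0.05 with the first). On scaled values, PigEx0024958 was lower on all 4 arrays of slide 6, controls included, than on the others of T3 (mean difference -1.88). PigEx0024957 was higher on all 4 than on the others (0.57). Whether slide or scan accounts for the values of COL3A1, LUM or COL1A2 was not tested.

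**Figure D3:**
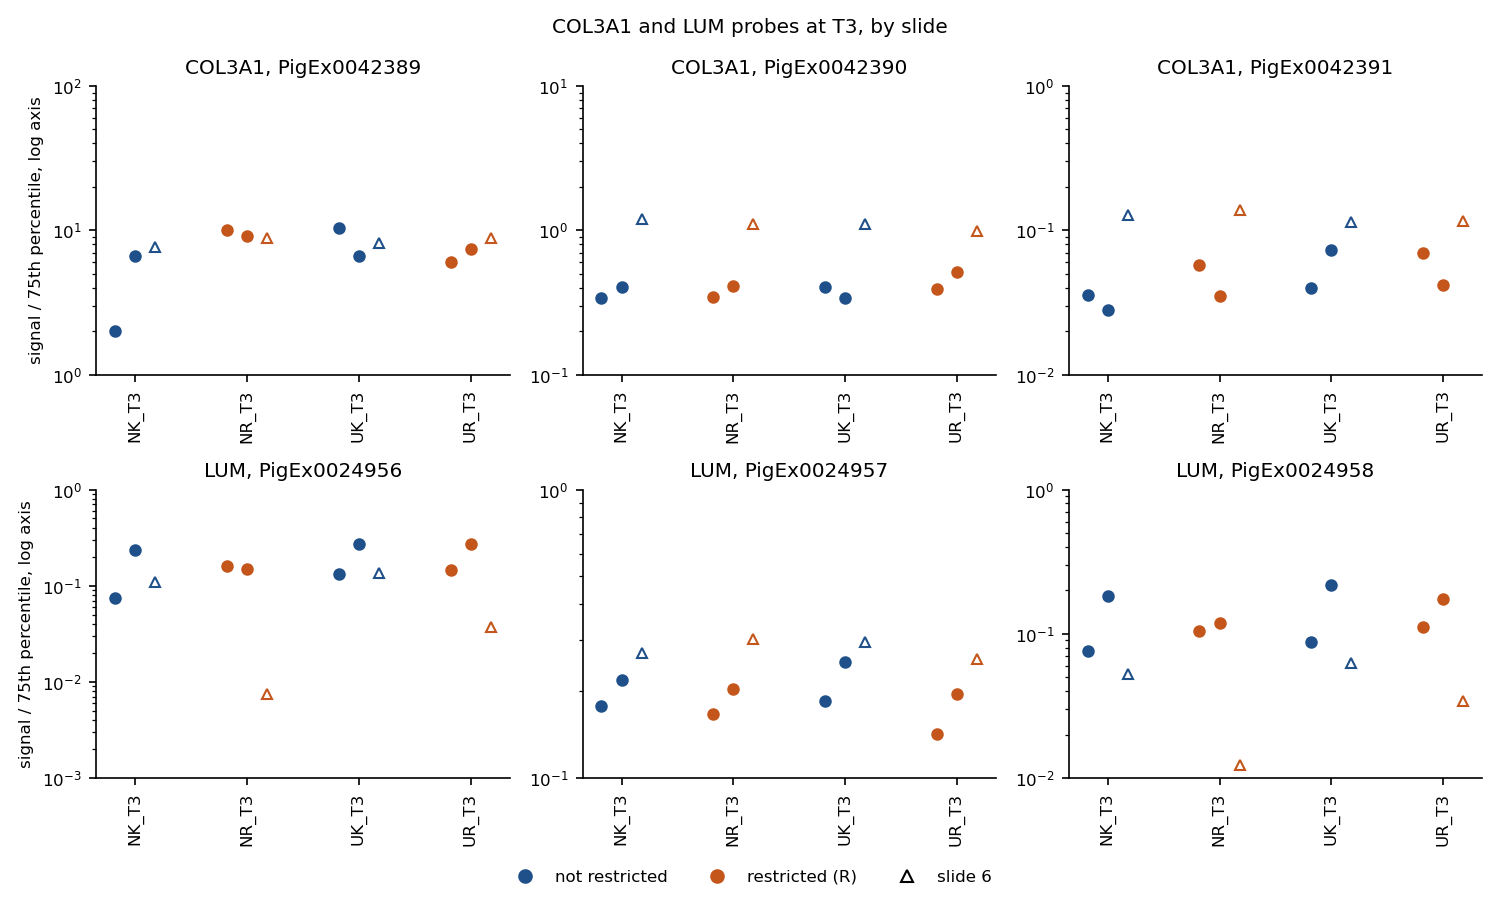
Scaled signal (signal divided by the array's 75th percentile, log axis) of the 3 COL3A1 and 3 LUM probes in each group at T3; each point is 1 pig and open triangles are the arrays of slide 6. The triangles stand above the circles in 2 of the COL3A1 probes, and the restricted triangles stand lowest in LUM probes PigEx0024956 and PigEx0024958. All triangles stand below the circles in PigEx0024958 and above them in PigEx0024957.

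DCN needs a limit of its own. Its table row, at 2.5 to 23.3 intensity units, is set by probes PigEx0034220 and PigEx0034221, which were not well above background on any of the 30 arrays. Its other probe, PigEx0034222, was well above background on all 30. On this probe NR differed from NK by 0.30 at T2 and by 0.13 at T3, and UR from UK by 0.28 at T2 and by -0.21 at T3, all with overlapping groups. No fold is given for the table row.

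The comparison of time points asked how the genes changed as control pigs grew. Since the table was normalized apart for each time point, scanner signals were used, divided by the 75th percentile of their array. From T2 to T3, COL1A1 rose in control pigs on all 3 of its probes. PigEx0039735 was at 1.31, 0.687 and 1.96 in NK_T2 and at 1.09, 1.73 and 1.41 in UK_T2, and then at 4.72, 3.18 and 2.68 in NK_T3 and at 2.05, 3.37 and 2.02 in UK_T3. All 6 control pigs at T3 lay above all 6 at T2, by 1.15 ± 0.26 (SE) on the log2 scale or 2.22-fold (limma adjusted p = 0.0116). PigEx0039736 was 2.51-fold higher (1.33 ± 0.29, adjusted p = 0.00786) and PigEx0039734, the glycine repeat probe, 1.54-fold (0.62 ± 0.17, adjusted p = 0.0316), both with overlapping ranges. In this comparison 2287 of 41061 probes were called, 5.57%, of which 994 (2.42% of all) were higher at T3.

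The same comparison in restricted pigs, chosen after the control result was seen, used none of the same animals. PigEx0039735 was at 0.835, 0.962 and 0.823 in NR_T2 and at 1.52, 2.03 and 0.722 in UR_T2, and at 1.34, 1.74 and 2.87 in NR_T3 and at 2.45, 2.87 and 3.16 in UR_T3. The level at T3 was 2.16-fold that at T2 (1.11 ± 0.26, adjusted p = 0.0414), with some overlap. PigEx0039736 was 2.26-fold higher (adjusted p = 0.0458). Both calls were lost in a fit of only the restricted arrays (adjusted p = 0.109 and 0.0586) and without the filter on dim probes (0.0721 and 0.0806). That for PigEx0039735 was also lost without slide 6 (0.0790) and that for PigEx0039736 with slide as a block (0.0519). PigEx0039734 was 1.41-fold higher without passing (adjusted p = 0.159). Of all probes 0.981% were called here, and 0.39% were called higher. Taken as the median of the 3 probes, COL1A1 was the only one of the 8 genes called in either comparison, 2.25-fold higher in controls (adjusted p = 0.0116, 3.24% of 19024 rows called) and 2.19-fold higher in restricted pigs (adjusted p = 0.0420, 0.520% called).

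**Figure D4:**
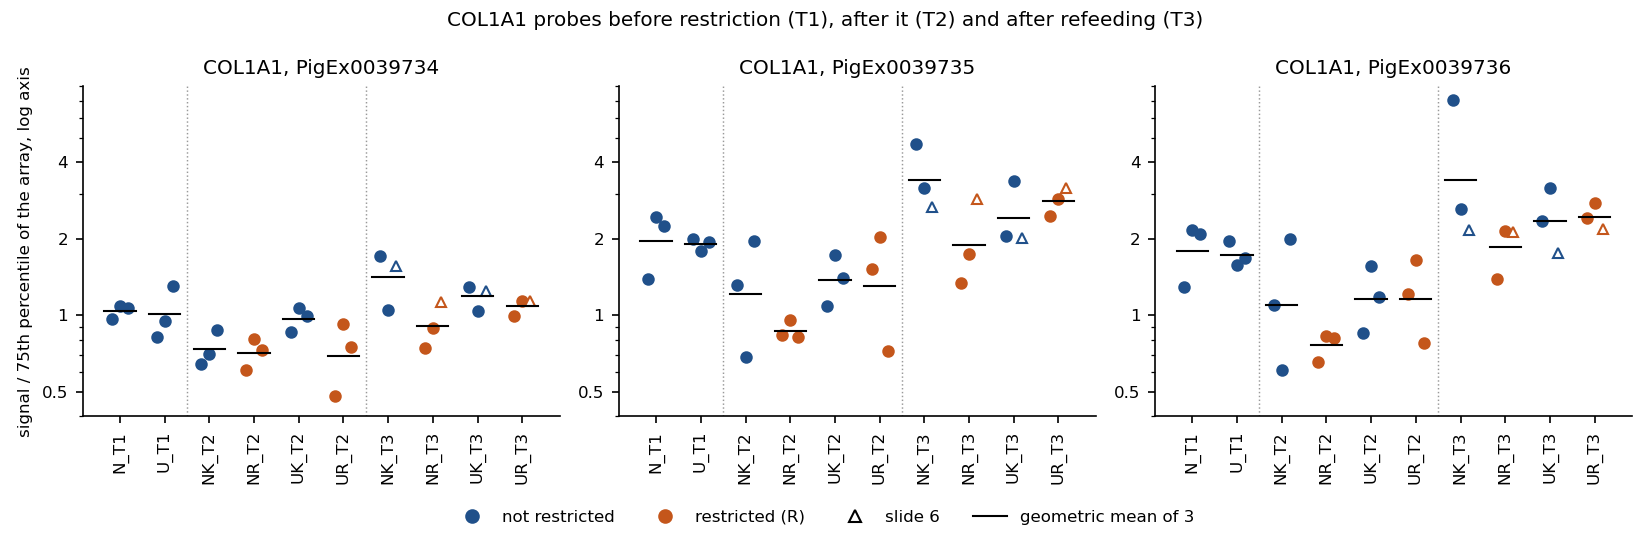
Scaled signal (signal divided by the array's 75th percentile, log axis) of the 3 COL1A1 probes in each of the 10 groups; each point is 1 pig, bars are geometric means of 3, triangles are slide 6, and dotted lines separate the time points. For PigEx0039735 the 6 control pigs at T2 are at 0.687 to 1.96 and those at T3 at 2.02 to 4.72.

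Time and slide were not balanced, but slides 3, 4 and 5 held arrays of both T2 and T3. They held 2, 1 and 3 arrays of T2 and 3, 4 and 1 of T3. Feeding groups were mixed and only slide 4 held controls of both times, so differences within these slides are not control differences. Within slides 3, 4 and 5, T3 minus T2 over all feeding groups was 1.13, 1.30 and 1.17 for PigEx0039735 and 1.26, 1.60 and 1.27 for PigEx0039736. For PigEx0039734 it was 0.36, 0.28 and 0.32, where the control comparison over all slides gave 0.62. With slide as a block PigEx0039734 was not called in controls (0.48, adjusted p = 0.196). With slide as a block the control differences of PigEx0039735 and PigEx0039736 were 1.25 and 1.49 (adjusted p = 0.0252 and 0.0255). In a fit of only the 12 control arrays of T2 and T3, the adjusted p was 0.0484 for PigEx0039735 and 0.0734 for PigEx0039736. Leaving out single control arrays kept both called (0.95 to 1.33 and 1.07 to 1.54) and ended the call of PigEx0039734 in 8 of 12 cases. In the restricted pigs, leaving out a single array ended the call of PigEx0039735 in 9 of 12 cases and of PigEx0039736 in 11 of 12, with differences from 0.90 to 1.27 and from 1.03 to 1.31.

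Of the 24 probes of the 8 genes, 22 passed the filter on dim probes and 16 were well above background on all 30 arrays. Of these 16, 5 were called higher from T2 to T3 in controls, where 2.33% of all such probes were, and 3 in restricted pigs, where 0.408% were. Besides COL1A1, these were single probes of SPARC and VIM. SPARC probe PigEx0042528 ranged from 3.96 to 6.38 in control pigs at T2 and reached 12.1 at T3, with a median of 8.85, a 1.59-fold rise (adjusted p = 0.0339) with overlapping ranges. Its other probes were 1.24-fold and 1.41-fold higher and were not called (adjusted p = 0.355 and 0.142). Leaving out a single array ended the SPARC call in 7 of 12 cases, and in a fit of only the 12 control arrays the adjusted p was 0.126.

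VIM probe PigEx0032357 ranged from 5.92 to 6.69 in controls at T2 and from 7.84 to 12.6 at T3, with no overlap (1.53-fold, adjusted p = 0.0281). In restricted pigs it was 1.65-fold higher (adjusted p = 0.0347). The VIM probes did not move alike: PigEx0032356 was 1.15-fold higher in controls (adjusted p = 0.579) and PigEx0032355 was at 0.874-fold (adjusted p = 0.606). Each of the 2 calls was lost on leaving out single arrays, in 7 and 8 of 12 cases, and in fits of only the arrays compared the adjusted p was 0.0613 in controls and 0.153 in restricted pigs.

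COL1A2 probe PigEx0037067 was well above background on 0 of 6 control arrays at T2 and on 5 of 6 at T3. It entered the test only through T3, where it is brighter, and is left out of the counts above. It was at least 1.65-fold higher at T3, measured against the lowest signal among probes well above background on each T2 array. The adjusted p of 0.0211 belongs to the measured difference of 1.56 on the log2 scale, in part against background, and not to this bound. With normexp the difference was 0.30 (adjusted p = 0.0713), and with slide as a block it was not called (adjusted p = 0.0989). The other COL1A2 probes were not called, at 1.26-fold and 1.61-fold (adjusted p = 0.532 and 0.113). No probe of COL3A1, LUM, TIMP1 or DCN was called in controls or in restricted pigs. LUM probe PigEx0024958, well above background on 4 of 6 control arrays at T2, was higher at T3 in controls by 1.05 on the log2 scale, in part against background (adjusted p = 0.263). It was called once the 4 arrays of slide 6 were left out (1.43 on the log2 scale, adjusted p = 0.0281) or slide was a block (2.25, adjusted p = 0.0109).

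**Figure D5:**
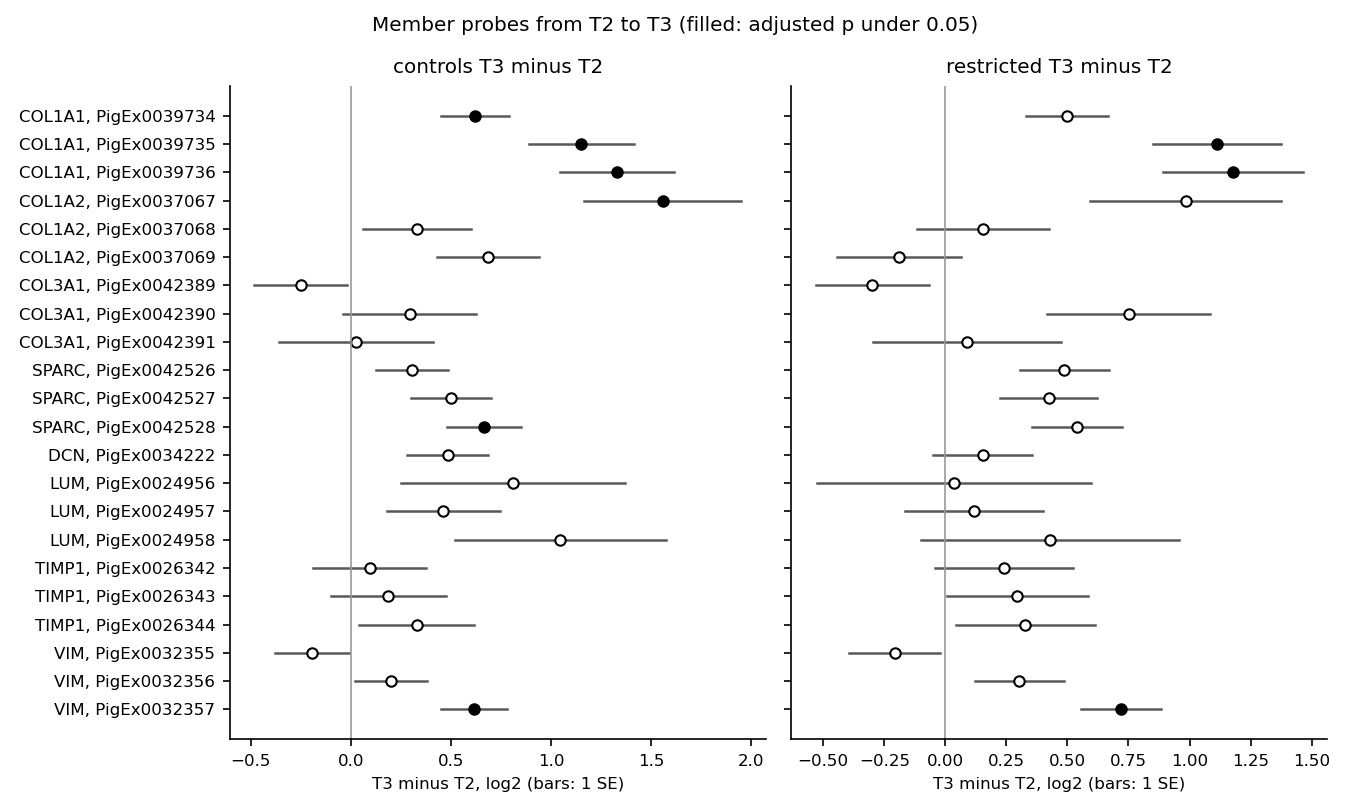
Difference T3 minus T2 on the log2 scale for the 22 probes that passed the filter, in 6 against 6 control pigs (left) and 6 against 6 restricted pigs (right); bars are 1 SE and filled points have a limma adjusted p under 0.05. The COL1A1 probes PigEx0039735 and PigEx0039736 are filled in both panels at 1.11 to 1.33.

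From T1 to T2, all 22 probes were at lower values in control pigs at T2, among them the 16 well above background on all 30 arrays. None was called, where 94 of 41059 probes were (0.229%). The share of all probes that were lower was not counted, so the shared sign cannot be read as particular to these genes. COL1A2 probe PigEx0037067, one of the 22, was well above background on 2 arrays of T1 and 0 of T2. COL1A1 probe PigEx0039735 had been at 1.38 to 2.43 in the 6 pigs at T1, a range that overlaps those of T2 and T3, and its difference T2 minus T1 was -0.58 (adjusted p = 0.456). T3 was not tested against T1. In order of level on this probe, T2 controls were lowest, T1 pigs next and T3 controls highest. The step between T1 and T2 was not called, while the difference between the T2 and T3 controls was.

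Across the 30 arrays, after removing the mean of each separately normalized set, COL1A1 and COL1A2 correlated with r = 0.36, COL1A1 and COL3A1 with -0.14, and COL1A2 and COL3A1 with 0.10. These are descriptions of arrays that share slides; without slide 6 (26 arrays) they were 0.39, -0.09 and -0.08. With the mean of the 3 collagens, TIMP1 correlated with r = 0.30, VIM with 0.01, DCN with -0.02, SPARC with -0.21 and LUM with -0.29. Without slide 6 these were 0.25, 0.10, 0.13, -0.04 and 0.08 in the same order, so the signs for LUM and DCN turned. The rows outside the 8 genes most like the collagen mean were ENSP00000267935 (r = 0.76) and ENSP00000216756 (r = 0.74), which are left unnamed because no table used here pairs these identifiers with genes. For the same reason, other matrix genes and markers of stellate, endothelial, immune, bile duct and blood cells were not analysed here, and the label of the tissue as liver was not checked against hepatocyte markers.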

How the data were processed

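Cy3-labelled RNA of 30 liver samples was hybridised to 1-colour Agilent arrays, and per the file headers the authors read the scans with Feature Extraction 10.5.1.1. The deposited processed signal is an intensity, background subtracted within the array. The authors' deposited table also holds intensity. Its making is not stated; 19024 of its 19864 rows (95.8%) equalled, within 0.05 on the log2 scale, the median of 3 neighbouring probes after quantile normalization in 4 sets. Gene symbols come from the list that defined the 8 genes, all of which are described. The genes and lists were chosen with earlier results of these data known. The log2 of the table was fitted with limma 3.58.1 in R 4.3.3, 1 fit per time point, and N and U were not compared directly at T2. Times were compared on log2 of the deposited signal minus the array's 75th percentile, in 1 fit of 30 arrays, over 41061 probes well above background on all 3 arrays of a group. P-values were two-sided and Benjamini-Hochberg adjusted. The number of arrays limits the precision. Both fits were tested on simulated data. Same-numbered arrays deviated together (every r over 0.1) for NR with NK, UR with UK and UR with NR at T3. For these, r was 0.52 to 0.66 in replicate 3, whose arrays share a slide, and 0.15 to 0.36 in the others. Arrays did not all deviate together in this way at T1, for NR with NK or UR with UK at T2, or for UK with NK at T3. The reported differences were fitted without pairing, and replicate number was a block only in an alternative. Alternatives were other normalizations and filters, an offset of 16, blocks for replicate, slide and scan, array weights and leaving out arrays. Summaries and plots used Python 3.11.15, numpy 2.4.6, pandas 2.3.3 and matplotlib 3.10.9.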

Additional observations from a re-analysis of the deposited data

How the results depend on the processing

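In the 11 comparisons within a time point, none of the 8 genes was called under any alternative tried. Counts over all rows moved from 0 to at most 3. With an offset of 16 before the log, or on scanner probes with either normalization, restriction averaged at T2 gave 1 call. A fit of all 30 arrays gave 2 for NR minus NK at T2 and 1 for UK minus NK at T3, array weights gave 1 for NR minus NK at T3, and rows rebuilt from scanner probes gave 1 for the difference of restriction effects at T2. Leaving out single arrays gave 0 to 3 calls for NR minus NK at T2 and 0 to 1 for the differences of restriction effects at T2 and T3, UK minus NK at T3 and UR minus UK at T3. With replicate number as a block, as if same-numbered pigs were pairs, the 11 comparisons had 0 calls each, as without it.

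Counts of called probes between times moved more. For controls T2 minus T1 (94), they were 144 with normexp, 55 with slide, 170 with replicate number and 287 with scan as a block, 33 without the filter, and 14 to 131 without single arrays. For controls T3 minus T2 (2287), they were 3983 with slide and 5183 with scan as a block, 1324 with only the arrays compared, 6427 without slide 6, and 1054 to 2525 without single arrays. For restricted pigs (403), they were 1269, 2891, 70 and 1461 in that order, 204 without the filter, and 121 to 440 without single arrays. The scan block, the fit of only the arrays compared, the fit without slide 6 and the rebuilt rows were chosen after the data were seen. Causes of these moves were not tested. The 1232 alternative values for single probes over time cover 66 results. Of these results, 6 in controls and 3 in restricted pigs, all from T2 to T3, were called and so could lose a call. Of the 1232 values, 73 lost a call, 13 gained one and 0 reversed.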
